A study of Homo sapiens with 6 samples.

Results

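YAP1 and WWTR1 encode YAP and TAZ, the transcriptional co-activators at the end of the Hippo pathway, and they were examined here together with their DNA-binding partner TEAD1 and 7 genes widely used as their direct targets: CCN1, CCN2, ANKRD1, AMOTL2, AJUBA, LATS2 and AXL. These 10 genes were taken by symbol, as Hippo effectors and well-known targets, and all 10 were found among the 29483 genes of the table. RNA sequencing was done on HK-2 cells, a human kidney proximal tubule line immortalised with papillomavirus genes. All 6 cultures were held in 25 mM glucose (high glucose, HG) for 7 days. The control group (3 replicates) then stayed in HG without TEPP-46, and the case group (3 replicates) received 10 μM TEPP-46, a small molecule that drives the glycolytic enzyme PKM2 into its active tetramer, for 1 day. No normal-glucose group was part of the comparison, and the vehicle given to the control group was not given in the sources used here.

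In the Hippo pathway the MST kinases activate the LATS kinases, and LATS phosphorylates YAP and TAZ so that they are kept in the cytoplasm or degraded. Unphosphorylated YAP and TAZ enter the nucleus and bind TEAD proteins, which place them on promoters and enhancers of genes for matrix proteins, cytoskeletal regulators and growth control. Cell density, matrix stiffness and actin tension set how much YAP is nuclear, and in the kidney tubule the pathway is best known from injury, repair and fibrosis. The activity of YAP and TAZ is thus set largely on the protein, which RNA levels do not show.

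The proximal promoters of CCN2 and ANKRD1 are shown because both are textbook TEAD targets, both held several copies of the TEAD core motif, and CCN2 was called here while ANKRD1 was not. The 250 bases before the transcription start were taken from RefSeq (GRCh38.p14, minus strand, written 5′ to 3′), at chr6:131951373-131951622 for CCN2 and chr10:90921088-90921337 for ANKRD1. Capitals mark GGAATG, the core of the MCAT element that TEAD proteins bind, which was searched for on both strands (GGAATG or its reverse complement CATTCC).
CCN2: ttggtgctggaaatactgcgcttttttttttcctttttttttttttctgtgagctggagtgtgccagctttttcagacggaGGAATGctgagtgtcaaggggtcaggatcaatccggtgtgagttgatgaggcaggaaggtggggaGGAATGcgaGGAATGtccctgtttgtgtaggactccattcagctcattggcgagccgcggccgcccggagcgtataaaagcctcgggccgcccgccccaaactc
ANKRD1: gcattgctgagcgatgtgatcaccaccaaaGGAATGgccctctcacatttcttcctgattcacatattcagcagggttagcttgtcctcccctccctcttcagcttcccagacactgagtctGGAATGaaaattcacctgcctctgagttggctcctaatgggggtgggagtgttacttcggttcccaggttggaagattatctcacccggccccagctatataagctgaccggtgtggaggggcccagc
CCN2 held 3 copies, whose first bases lay 169, 104 and 95 bases before the start, and ANKRD1 held 2, at 220 and 128 bases before it. Over all 35116 promoter windows of this table, each reaching from 250 bases before to 50 after a start, 14% held at least 1 copy, 1.37% at least 2 and 0.128% at least 3. Of the 10 genes, 8 had an entry (not CCN1 and TEAD1), with 12 windows between them because some genes have more than 1 start. The motif was in 7 of the 12 windows (58.3%). Besides CCN2 and ANKRD1, YAP1 held 1 copy, 162 bases before its start, and LATS2 held 1 just after its start. AMOTL2, AJUBA and AXL held 1 copy in one window and none in the other, and neither window of WWTR1 held any. A match of 6 letters is a description of the sequence and not a measured binding site.

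The deposited values were FPKM, fragments per kilobase of gene scaled to the mapped reads of the library, which can be compared between genes because they are given per length. They could be resolved into whole reads, with 15359634 to 18630654 assigned to genes in a library, and each of the 10 genes rested on at least 142 reads in every library. For the tests, FPKM was scaled between libraries and put on a log2 scale with 0.1 added, and groups were compared with limma over 13599 genes. These had a mean FPKM no lower than 0.5, a filter that all 10 genes passed. A gene was called where its adjusted p was at most 0.05. The controls lay close together and the case libraries less so. The median standard deviation (SD) between replicates was 0.0887 log2 units for the controls and 0.189 for the case libraries. Along the first principal component case replicate 2 (9.55) lay nearer the controls (−22.87, −27.76 and −23.73) than case replicates 1 and 3 did (30.46 and 34.36).

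CCN2 and CCN1, the matricellular proteins that serve as the standard readouts of YAP activity, rose with TEPP-46, and TEAD1 fell. The other 7 genes were not called, among them YAP1 and WWTR1 themselves. The calls were thus 2 higher and 1 lower of 10, beside 13.2% called in either direction, 7.34% higher and 5.84% lower over all tested genes. The median log2 fold change (case minus control, as throughout) was −0.13 over the 10 genes and −0.00167 over all genes tested, and 7 of the 10 had a negative value. The scaled values of the case and control groups did not overlap for 7 of the 10 (3 higher, 4 lower), against 39.9% of all tested genes. In bulk RNA, fewer cells that express a gene and less RNA per cell cannot be told apart.

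**Figure D1:**
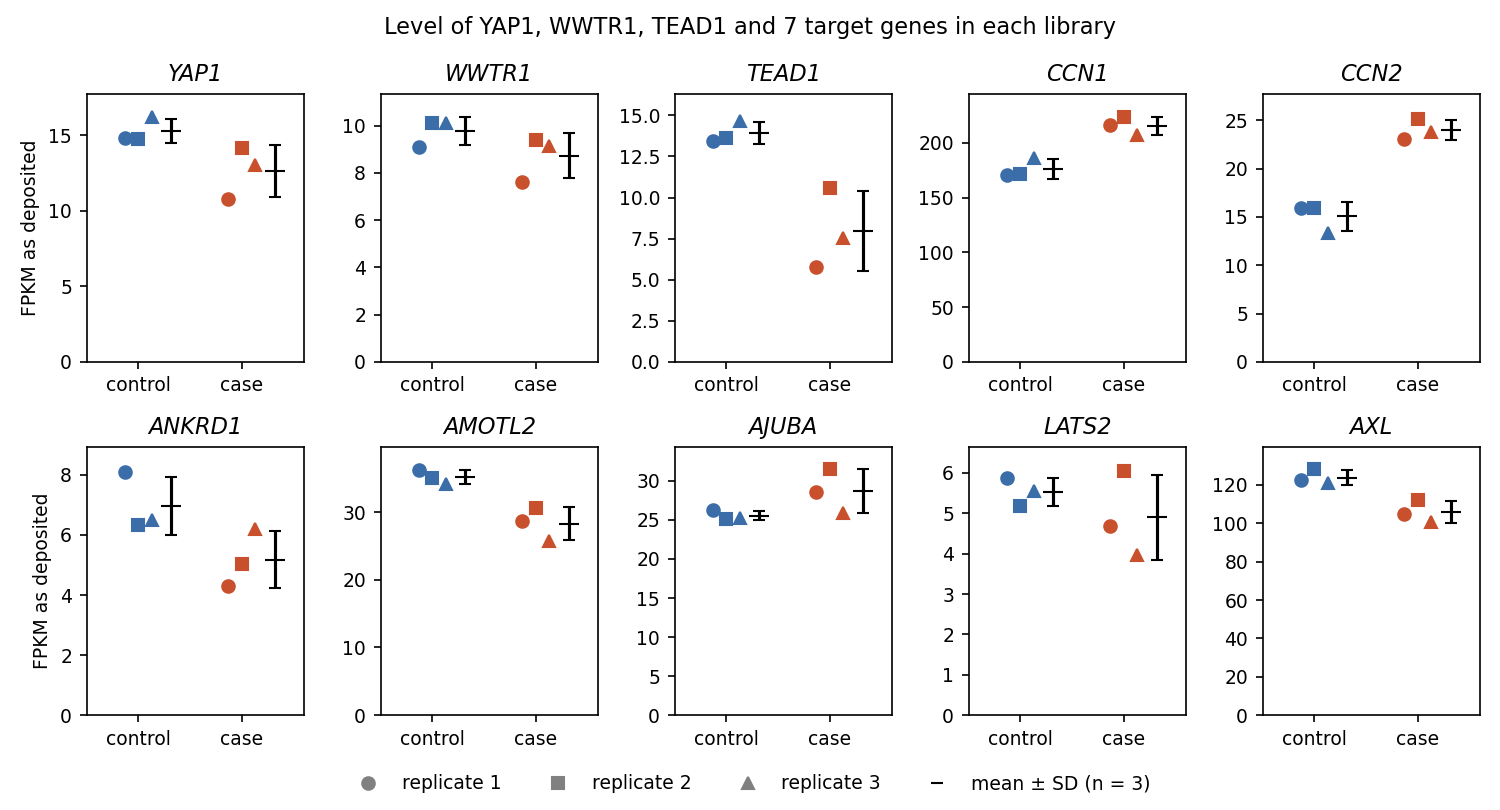
FPKM as deposited (vertical axis, starting at 0) of each of the 10 genes in the 3 control (blue) and 3 case (red) libraries, with the replicate given by the symbol's shape and bars for mean ± SD. The 3 case values of CCN2 lie between 23.0 and 25.1, above all controls, and those of TEAD1 between 5.76 and 10.6, below all controls.

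Their levels spanned a wide range. In the control group CCN1 was highest (mean 176 FPKM), followed by AXL (124), AMOTL2 (35.1), AJUBA (25.5), YAP1 (15.3), CCN2 (15.1), TEAD1 (13.9), WWTR1 (9.78), ANKRD1 (6.96) and LATS2 (5.53). Neighbours in this order were separated in every control replicate except YAP1 with CCN2 and CCN2 with TEAD1, whose values overlapped. Of the co-activators, YAP1 was thus above WWTR1 in all controls. In the case group CCN2 (mean 24.0 FPKM) stood above YAP1 (12.6) and TEAD1 (7.95).

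YAP1 (ENSG00000137693; GRCh38 chromosome 11, 102110447 to 102233424, plus strand) had 14.8, 14.8 and 16.2 FPKM in control replicates 1 to 3, and 10.8, 14.2 and 13.02 FPKM in case replicates 1 to 3. All case values lay below all control values, by little for case replicate 2. The log2 fold change was −0.20 (SE 0.098, 95% interval −0.43 to 0.03), which was not called (adjusted p = 0.193). It was −0.11 without case replicate 1 and −0.40 (adjusted p = 0.0506) when every library was set to the same FPKM sum. WWTR1 (ENSG00000018408; chromosome 3, 149517235 to 149736714, minus strand), the gene for TAZ, had 9.08, 10.1 and 10.1 FPKM in the controls and 7.63, 9.38 and 9.15 FPKM in the case replicates. The groups overlapped, with only case replicate 1 below every control. Its log2 fold change was −0.09 (SE 0.094, 95% interval −0.31 to 0.13, adjusted p = 0.535). It was −0.02 without case replicate 1, −0.14 without control replicate 1, 0.037 with a correction for gene length, and −0.17 and −0.29 with unscaled FPKM and equal FPKM sums, never called.

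TEAD1 (ENSG00000187079; chromosome 11, 12674421 to 12944737, plus strand), one of the 4 TEAD factors through which YAP and TAZ reach DNA, had 13.5, 13.6 and 14.7 FPKM in the controls and 5.76, 10.6 and 7.53 FPKM in the case replicates. The groups did not overlap, but the case replicates were far apart, at log2 deviations from the control mean of −1.13, −0.36 and −0.81. TEAD1 fell by 0.77 on the log2 scale (SE 0.175, 95% interval −1.17 to −0.36, adjusted p = 0.0307). The decrease was measured on 2511 to 2619 reads in the controls and 989 to 1744 in the case libraries. These reads are not scaled, and every case library held fewer reads in total than any control. The call was lost without control replicate 1, 2 or 3 (adjusted p = 0.0967, 0.106 and 0.105) and without case replicate 3 (0.109), while the direction held each time. Without case replicate 2, the case library nearest the controls, the fold change was −0.97 (adjusted p = 0.00612).

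CCN2 (ENSG00000118523; chromosome 6, 131948176 to 131951372, minus strand), also called CTGF, is a secreted matrix-associated protein linked to fibrosis. It had 16.0, 15.9 and 13.4 FPKM in the controls and 23.0, 25.1 and 23.8 FPKM in the case replicates. All 3 case values lay well above the controls, and their log2 deviations from the control mean were nearly equal, at 0.74, 0.77 and 0.73. CCN2 rose by 0.75 on the log2 scale (SE 0.093, 95% interval 0.53 to 0.96, adjusted p = 0.0078), the gene ranked 71 by p among all tested. It was the member with the highest fold change and the one whose call held in all 15 alternative settings (0.55 to 0.76) and without any 1 of the 6 libraries (0.66 to 0.79, adjusted p = 0.00825 to 0.0432).

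CCN1 (ENSG00000142871; chromosome 1, 85580761 to 85584589, plus strand), also called CYR61 and of the same protein family, was the most abundant of the 10 genes. It had 170.5, 171 and 186 FPKM in the controls and 216, 224 and 207 FPKM in the case replicates. The groups did not overlap, with the lowest case library above the highest control. CCN1 rose by 0.37 on the log2 scale (SE 0.0756, 95% interval 0.20 to 0.54, adjusted p = 0.0233). Its call depended more on the settings than that of CCN2. It held in 10 of 15 alternatives and was lost, for example, under quantile normalization (0.17, adjusted p = 0.135) and when every library was set to the same FPKM sum (0.17, adjusted p = 0.109). It was also lost without control replicate 1, 2 or 3 (adjusted p = 0.115, 0.124 and 0.0836) and without case replicate 3 (0.0636).

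ANKRD1 (ENSG00000148677; chromosome 10, 90912096 to 90921087, minus strand), a stress-responsive ankyrin repeat protein and a widely used YAP target, was not called, unlike CCN1 and CCN2. It had 8.08, 6.31 and 6.48 FPKM in the controls and 4.29, 5.04 and 6.18 FPKM in the case replicates. The deposited values did not overlap, by a narrow margin, but after scaling case replicate 3 (6.29) lay within the control range. The log2 fold change was −0.35 (SE 0.148, 95% interval −0.69 to −0.01) (adjusted p = 0.141), on 142 to 298 reads a library. The 95% intervals of ANKRD1 and CCN2, the genes whose promoters are printed above, did not overlap. The difference between the changes of the 2 genes was not tested.

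AMOTL2, AJUBA and LATS2 act back on the pathway: the angiomotin AMOTL2 holds YAP and TAZ at junctions, the LIM protein AJUBA inhibits LATS, and LATS2 is one of the 2 kinases that phosphorylate YAP. AMOTL2 (ENSG00000114019; chromosome 3, 134355347 to 134375479, minus strand) had 36.2, 35.1 and 34.1 FPKM in the controls and 28.6, 30.6 and 25.7 FPKM in the case replicates. Every case library lay below every control, yet the log2 fold change of −0.24 (SE 0.086, 95% interval −0.44 to −0.04) was not called (adjusted p = 0.10). AMOTL2 was called lower with unscaled FPKM (−0.315, adjusted p = 0.0456), quantile normalization (−0.34, adjusted p = 0.0399) and equal FPKM sums (−0.44, adjusted p = 0.01925). AJUBA (ENSG00000129474; chromosome 14, 22971177 to 22982551, minus strand) had 26.2, 25.1 and 25.2 FPKM in the controls and 28.6, 31.5 and 25.9 FPKM in the case replicates. Its deposited values overlapped, since case replicate 3 lay below control replicate 1, and its scaled values did not. The log2 fold change was 0.24 (SE 0.087, 95% interval 0.04 to 0.44, adjusted p = 0.103), so that AJUBA was not called either, and it was 0.15 under quantile normalization and 0.040 with equal FPKM sums.

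LATS2 (ENSG00000150457; chromosome 13, 20973036 to 21061586, minus strand) had the lowest level of the 10 genes, with 5.87, 5.17 and 5.54 FPKM in the controls and 4.69, 6.04 and 3.96 FPKM in the case replicates. The case replicates lay on both sides of the controls. Its log2 fold change was −0.12 (SE 0.145, 95% interval −0.45 to 0.22, adjusted p = 0.615), and the sign turned (0.030) without case replicate 3. It was −0.25 without case replicate 2, −0.07 without control replicate 1 and −0.31 with equal FPKM sums, with no call. AXL (ENSG00000167601; chromosome 19, 41219223 to 41261766, plus strand), a receptor tyrosine kinase that responds to GAS6, had 123, 128 and 121 FPKM in the controls and 105, 112 and 101 FPKM in the case replicates. All case values lay below all controls. The log2 fold change of −0.15 (SE 0.073, 95% interval −0.32 to 0.02) was not called (adjusted p = 0.190), though it was with quantile normalization (−0.34, adjusted p = 0.0346).

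**Figure D2:**
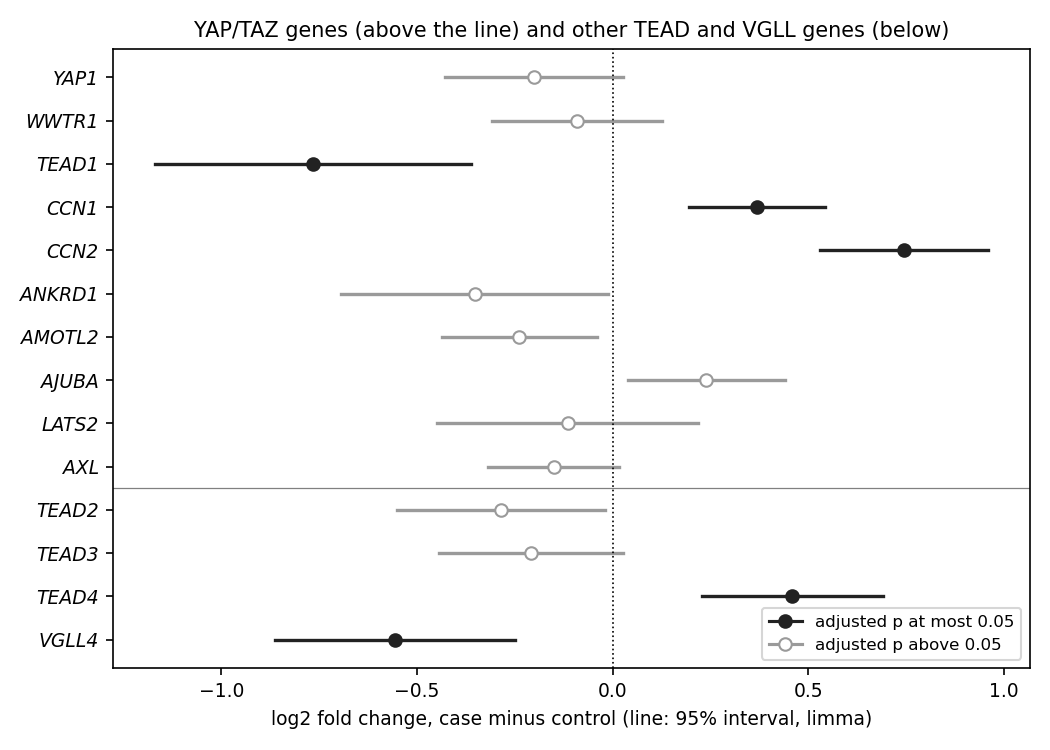
Log2 fold change, case minus control (horizontal axis), with its 95% interval from limma for the 10 genes (above the grey line) and for the other TEAD and VGLL genes tested (below it), filled where the adjusted p is at most 0.05. CCN1, CCN2 and TEAD4 lie to the right of 0 with filled points, and TEAD1 and VGLL4 lie to the left.

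Library by library, the 10 genes did not move as a block. Case replicate 2 had the smallest decreases of YAP1 (log2 deviation −0.08) and TEAD1 (−0.36) of the 3 case libraries. Its increase of AJUBA (0.33) was near that of case replicate 1 (0.29) and above that of case replicate 3 (0.09). The increases of CCN2 were nearly equal in all 3 (0.74, 0.77 and 0.73). Case replicate 3 had the lowest AMOTL2 (−0.38), AXL (−0.23) and LATS2 (−0.40), and the smallest increase of CCN1 (0.30). ANKRD1 was lowest in case replicate 1 (−0.55) and nearest the controls in case replicate 3 (−0.09). Over the 6 libraries YAP1 and TEAD1 had similar profiles (Pearson's r = 0.942), as did AMOTL2 and AXL (0.953) and CCN1 and CCN2 (0.892), while TEAD1 and CCN2 ran opposite (−0.846). These coefficients describe 6 points that share their scaling and include the difference between the groups.

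**Figure D3:**
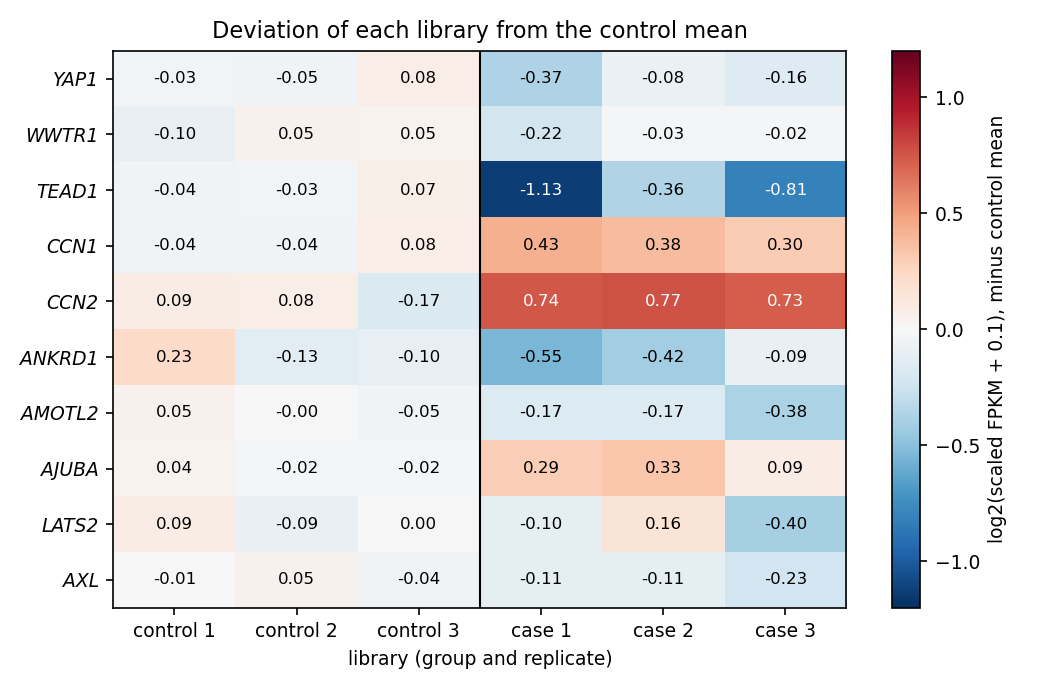
Log2 deviation of each library (columns, by group and replicate) from the control mean for each of the 10 genes (lines of cells), in blue below and red above it, with the value printed in the cell. The TEAD1 cells of the case libraries run from −0.36 to −1.13, and those of CCN2 from 0.73 to 0.77.

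TEAD1 and another family member went in opposite directions. TEAD4 rose, with 16.1, 18.0 and 14.4 FPKM in the controls and 21.5, 21.2 and 20.3 FPKM in the case replicates. All case libraries lay above all controls (log2 fold change 0.46, SE 0.10, adjusted p = 0.0268). TEAD2 (log2 fold change −0.28, adjusted p = 0.131) and TEAD3 (−0.21, adjusted p = 0.193) were not called. VGLL4, a co-factor that competes with YAP for TEAD proteins, fell by 0.56 on the log2 scale (SE 0.133, adjusted p = 0.035), from a mean of 2.40 to 1.52 FPKM. The calls of TEAD4 and VGLL4 held only without case replicate 1 or 2 among the 6 settings that left out a library. Their adjusted p without control replicates 1, 2 and 3 and case replicate 3 was 0.104, 0.0743, 0.108 and 0.0763 for TEAD4, and 0.134, 0.147, 0.101 and 0.107 for VGLL4. TEAD4 was also not called with a length correction (0.31, adjusted p = 0.0851) or equal FPKM sums (0.26, adjusted p = 0.10), nor VGLL4 with a length correction (−0.46, adjusted p = 0.0621) or quantile normalization (−0.47, adjusted p = 0.0649). VGLL1, VGLL2 and VGLL3 were not analysed here.

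The make-up of the TEAD family was examined after these values had been seen. TEAD1 made up 27.1%, 26.6% and 28.8% of the summed FPKM of TEAD1 to TEAD4 in the controls, and 12.7%, 22.05% and 17.6% in the case replicates. The TEAD4 share was 32.4%, 35.1% and 28.3% in the controls, and 47.4%, 44.2% and 47.5% in the case replicates. These shares restate the opposite changes of TEAD1 and TEAD4 and are given as a description, with no test. For the 4 genes together, FPKM summed to 50.6 ± 0.838 (SD, n = 3) among controls, against 45.4 ± 2.59 (SD, n = 3) with TEPP-46.

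**Figure D4:**
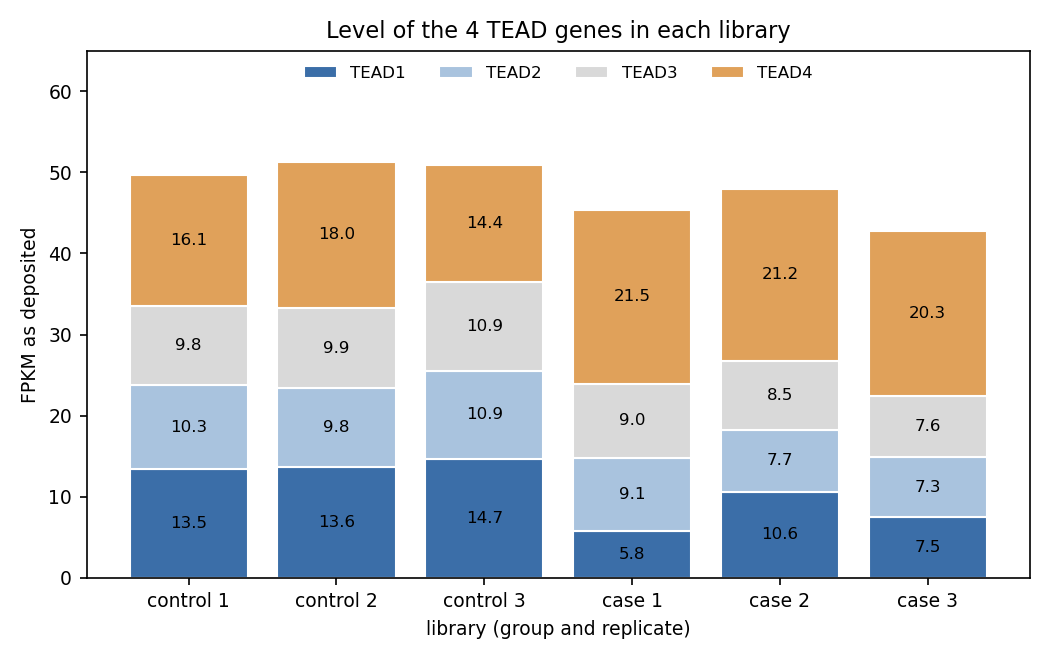
FPKM as deposited (vertical axis, starting at 0) of TEAD1, TEAD2, TEAD3 and TEAD4, stacked for each library (horizontal axis). The TEAD1 segment at the base is shorter in the 3 case libraries and the TEAD4 segment at the top is longer.

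Other genes of the pathway were taken from lists of known members. Of 34 Hippo kinases and regulators, 31 were tested, with 0 called higher and 5 lower, beside 7.34% higher and 5.84% lower over all genes, and 27 of the 31 had a negative fold change (median −0.28). At an unadjusted limma p under 0.05 there were 1 higher and 14 lower (all genes 16.8% and 16.2%), and voom on the recovered reads called 0 higher and 11 lower (all genes 9.52% and 11.1%). The 5 that fell were DLG5 (−0.75, adjusted p = 0.0281), a scaffold protein of cell junctions, MOB1B (−0.69, adjusted p = 0.0426), which helps to activate LATS, PTPN14 (−0.69, adjusted p = 0.030), a phosphatase that binds YAP, AMOTL1 (−0.67, adjusted p = 0.0143), an angiomotin, and WWC1 (−0.41, adjusted p = 0.0197), the upstream scaffold KIBRA. Other core and upstream genes were not called. STK4, one of the MST kinases, had a log2 fold change of −0.20 (adjusted p = 0.332), STK3, the other, 0.01 (0.956), their partner SAV1 −0.17 (0.223), LATS1 −0.41 (0.259) and the upstream tumour suppressor NF2 −0.09 (0.481). None of the 5 calls held without control replicate 1, 2 or 3 or case replicate 3, where the list had 0 called lower and all genes 14 to 71. Without case replicate 2 the list had 12 called lower and all genes 1682. The 5 had summed exon lengths of 8801 to 18752 bases. Among all tested genes of 8354 bases or more, 2.86% were called higher and 13.3% lower, with a median of −0.191. With a length correction 626 of all genes were called lower, and 2 of the 5 kept their calls. DLG5 (−0.57, adjusted p = 0.0514), MOB1B (−0.55, adjusted p = 0.054) and WWC1 (−0.24, adjusted p = 0.107) lost theirs.

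In a list of 16 further TEAD targets, 14 were tested, with 2 called higher and 4 lower (median −0.34), beside 7.34% and 5.84% over all genes. GADD45A, a DNA damage response gene, rose by 1.04 on the log2 scale (adjusted p = 0.00197), from a mean of 23.7 to 46.2 FPKM, and IGFBP3, a binding protein for insulin-like growth factors, by 0.96 (adjusted p = 0.0043), from 2.28 to 4.29 FPKM. Both are also p53 target genes, and the study picked them from these same libraries, so that their calls here are not independent evidence. The study also measured both by qRT-PCR in re-cultured and re-treated cells, and there it reported GADD45A as lower with TEPP-46. Those measurements were not analysed here. MYOF, a membrane repair protein, fell by 0.67 (adjusted p = 0.015), from a mean of 95.2 to 57.4 FPKM, and PTPN14 by 0.69 as given above. DOCK5 fell by 0.61 (adjusted p = 0.0494) and ARHGEF17 by 0.51 (adjusted p = 0.0256), and both encode guanine nucleotide exchange factors. GADD45A and IGFBP3 were called without any 1 of the 6 libraries, whereas 0 of the list were called lower without control replicate 1, 2 or 3 or case replicate 3. DOCK5 also lost its call without case replicate 1 (−0.43, adjusted p = 0.05175) and with a length correction (−0.38, adjusted p = 0.0696).

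A broader list of 52 genes reported to respond to YAP, of which 47 were tested, had 8 called higher and 4 lower (median −0.02), beside 7.34% and 5.84% over all genes. At an unadjusted limma p under 0.05 there were 10 higher and 12 lower (all genes 16.8% and 16.2%). Voom on the recovered reads called 9 higher and 9 lower (all genes 9.52% and 11.1%). Among those called higher by limma were the stress gene GADD45B (0.95, adjusted p = 0.00477), the intermediate filament VIM (0.66, adjusted p = 0.0204), the membrane-cytoskeleton linker MARCKS (0.56, adjusted p = 0.0417) and the phosphatase DUSP1 (0.49, adjusted p = 0.0365). Those called lower by limma were the caveolar protein CAVIN2 (−1.23, adjusted p = 0.00152), the actin crosslinker FLNA (−0.60, adjusted p = 0.0195), the matrix protein THBS1 (−0.57, adjusted p = 0.0224) and the transglutaminase TGM2 (−0.56, adjusted p = 0.015). CAVIN2 had the largest change of the list, from a mean of 13.4 to 5.36 FPKM. CAVIN2 and GADD45B were the only 2 of these 8 whose calls held without any 1 of the 6 libraries. Without control replicate 1, 2 or 3 or case replicate 3 the list had 1 called higher and 1 lower, and all genes 55 to 121 higher and 14 to 71 lower. With a length correction 9 of its 12 calls were kept, and FLNA (−0.42, adjusted p = 0.0669) and DUSP1 (0.34, adjusted p = 0.0556) were among those lost. MARCKS also lost its call without case replicate 2 (0.50, adjusted p = 0.0527) and with unscaled FPKM (0.49, adjusted p = 0.0752). The same held with replicate number as a block (0.56, adjusted p = 0.0608). With equal FPKM sums neither MARCKS (0.37, adjusted p = 0.14) nor DUSP1 (0.29, adjusted p = 0.0585) was called.

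Genes of actin and of its own transcription factors, SRF and the MRTF co-activators, were compared because YAP activity and several of its targets follow actin tension. Of 22 such genes 20 were tested, with 0 called higher and 4 lower (median −0.14), beside 7.34% and 5.84% over all genes. At an unadjusted limma p under 0.05 there were 0 higher and 9 lower (all genes 16.8% and 16.2%), and voom called 0 higher and 8 lower (all genes 9.52% and 11.1%). MRTFB fell by 0.84 (adjusted p = 0.0435), FLNA by 0.60 as above, the actin-binding CNN2 by 0.49 (adjusted p = 0.0221) and the focal adhesion protein VCL by 0.46 (adjusted p = 0.0266). The actin genes ACTB and ACTG1, named after their values were seen, were not called, at −0.34 (adjusted p = 0.0536) and −0.32 (adjusted p = 0.0542). None of the 4 was called without control replicate 1, 2 or 3 or case replicate 3, and MRTFB was also not called without case replicate 1 (adjusted p = 0.0687). With a length correction CNN2 kept its call. MRTFB (−0.61, adjusted p = 0.06), FLNA (−0.42, adjusted p = 0.0669) and VCL (−0.30, adjusted p = 0.0539) lost theirs. Across the 4 lists PTPN14 and FLNA were each counted in 2, and ASAP1, CRIM1, NT5E and TGFB2 in both target lists.

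**Figure D5:**
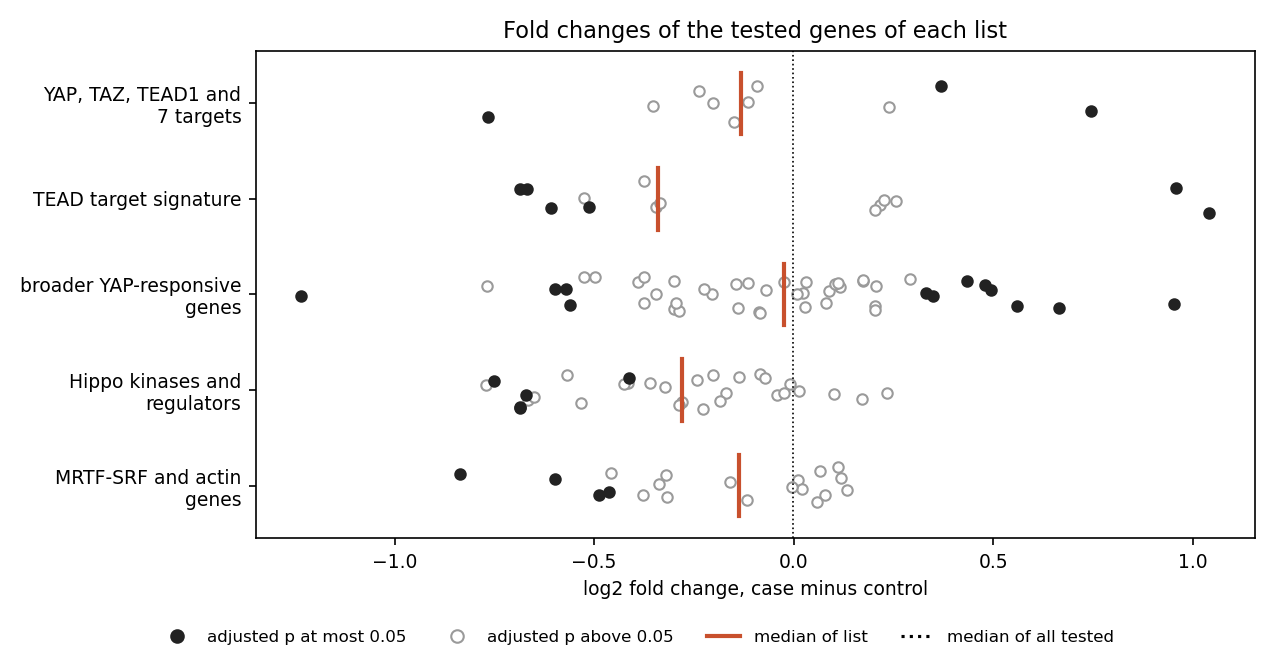
Log2 fold change, case minus control (horizontal axis), of each tested gene in the 10 YAP and TAZ genes and the 4 lists (vertical axis), filled where the adjusted p is at most 0.05, with the median of each list as a red line and the median of all tested genes dotted. The 2 target lists have filled points on both sides of 0, and the Hippo and actin lists on the left only.

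Gene length moved with the fold change in these libraries. With the tested genes divided by summed exon length into 5 bins of equal size, the median log2 fold change was 0.158 in the bin of the shortest genes and −0.191 in that of the longest. The share called higher was 10.1% in the shortest bin and 2.86% in the longest, and the share called lower 1.96% and 13.3%. TEAD1, whose exons sum to 10700 bases, was in the longest bin, and CCN1 (3698 bases) and CCN2 (2338 bases) were in the next to shortest (median 0.116), so that all 3 moved in the direction of genes of their length. With a length correction TEAD1 had a log2 fold change of −0.59 (adjusted p = 0.035), CCN1 0.31 (adjusted p = 0.031) and CCN2 0.60 (adjusted p = 0.017), and all 3 stayed called. ANKRD1 (1790 bases) was in the shortest bin and had a fold change of the opposite sign to its median.

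The libraries were checked for what else differed between the groups. Mitochondrially encoded genes made up 10.8%, 10.7% and 10.8% of the FPKM sum in the controls and 12.8%, 14.2% and 13.2% in the case replicates (p = 0.1 by a two-sided exact permutation test, which with 3 against 3 can go no lower). Of the 15 tested 10 were called higher, beside 7.34% over all genes, the largest being MT-RNR1 (0.75), MT-CO3 (0.66), MT-ND2 (0.65) and MT-ND6 (0.65) and the smallest MT-CO1 (0.45), MT-CYB (0.49), MT-ND1 (0.54) and MT-ND4 (0.61). Of the 10 calls 1, 0 and 2 held without control replicates 1, 2 and 3 (without control replicate 2 the adjusted p was 0.0642 to 0.127), 1 without case replicate 3, and 5 with a length correction. Under quantile normalization 3 of the 10 calls held, and no difference was left in MT-CO1, MT-CO2 and MT-CO3, which were among the most abundant genes. That method gives a gene of the same rank in every library the same value, so it cannot show a difference in such genes. The part of this share in the values of the 10 genes was not tested. With every library set to the same FPKM sum, the median of all genes moved to −0.194, with 383 called higher and 2387 lower. AMOTL2 (−0.44), AXL (−0.35) and ANKRD1 (−0.55) were then among the genes called lower. PKM, which encodes the target of TEPP-46, had 929.5, 923 and 891 FPKM in the controls and 934, 793 and 811 FPKM in the case replicates, with overlap (−0.04, adjusted p = 0.821).

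Markers of the cell line were mixed. The epithelial keratins KRT8, KRT18 and KRT19 were abundant (control means 344, 193 and 352 FPKM), and EPCAM (13.8) was present. The genes of mature proximal tubule function LRP2, CUBN, SLC34A1, SLC5A2, AQP1, ANPEP and GGT1 were all below 0.5 FPKM in the mean, as were PAX8 and PAX2. Of the 18 tubular markers 16 were in the table and 6 were tested, and CDH1 (E-cadherin), from 3.42 to 2.05 FPKM, was the 1 called, lower (−0.64, adjusted p = 0.0156), beside 5.84% lower over all genes. CDH1 was called without case replicate 1 or 2 only among the settings that left out a library (adjusted p = 0.0753, 0.0866 and 0.074 without control replicates 1, 2 and 3, and 0.0583 without case replicate 3).

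Markers of other cell types were low. The fibroblast markers summed to between 0.173 and 0.454 FPKM in a library, with COL1A1 the most abundant at a control mean of 0.307, and 0 of the 4 in the table were tested. The 5 endothelial markers summed to at most 0.101 FPKM, with TEK at 0 in the mean of the controls, and 0 were tested. Of the leukocyte markers 2 of 5 were in the table, with CD68 near 0 and CD14 at a mean of 0.806 FPKM among the controls and 0.264 with TEPP-46. CD14 passed the filter only through the controls, where it was higher, so no test of it is given.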

How the data were processed

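The authors discarded reads with adapters, low quality or undetermined bases, aligned the rest with HISAT2 (2.1.0) to GRCh38.p13, counted them per gene with HTSeq (0.6.0) and deposited FPKM, with tools and build as in the submitters' processing notes. The annotation release, the strand setting and the RNA selection were not given in the sources used here, so that reads of a gene and of an antisense partner cannot be told apart. The antisense RNA WWTR1-AS1 was listed with at most 40 reads in a library and that overlapping YAP1 (ENSG00000277459) with at most 34. The authors' table held 6 columns of FPKM and 0 that were not used.

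FPKM values were resolved into whole reads for 27922 of 27922 genes above 0 (100%, tolerance 0.002 reads plus 1e-07 per read). A gene whose reads share a common divisor may be given too few. Lengths and positions came from GENCODE release 44 (29063 of 29483 IDs matched), and promoters from RefSeq.

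FPKM was divided by median-of-ratios factors (0.944 to 1.04) over genes with a mean of at least 0.5, and log2(FPKM + 0.1) was fitted with limma 3.58.1 (R 4.3.3, intensity trend, Benjamini-Hochberg adjustment over 13599 genes). The fit was also run on simulated reads with the same spread in both groups and no length trend, unlike these libraries. That run does not measure how reliable the calls here are. A fold change on this scale understates that of low genes. p-values measure the spread between cultures of 1 cell line. Exact permutation tests served single values. The 10 genes, the lists (TEAD and VGLL, Hippo kinases and regulators, TEAD targets, YAP-responsive, MRTF-SRF and actin, tubular, fibroblast, endothelial, leukocyte and mitochondrial genes) and the tests were chosen with earlier results of these data known. All 10 genes, the TEAD and VGLL genes, PKM and 5 core Hippo genes were named, and of each other list every called gene where at most 8 were called, otherwise the 4 with the highest and the 4 with the lowest fold change among the called genes. Some genes that this rule or these lists take in are not reported here.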

Additional observations from a re-analysis of the deposited data

How the results depend on the processing

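Every log2 fold change of the 10 genes was recomputed under 15 alternatives, 1 of which (scaling factors over all genes above 0) was added after seeing the data, and without each library. Of 150 values under the alternatives 135 kept their direction and side of the threshold, 7 lost and 6 gained a call and 2 changed sign; of 60 without a library 51 kept both, 8 lost the call and 1 changed sign. WWTR1 changed sign, to 0.037, with the length correction and with replicate block and length correction together, and LATS2, to 0.030, without case replicate 3. Without any other 1 library LATS2 stayed negative, down to −0.25.

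Calls among all genes (998 higher, 794 lower), the 10 genes (2, 1), TEAD targets (2, 4), Hippo regulators (0, 5), YAP-responsive genes (8, 4) and actin genes (0, 4) moved as follows, given as higher, then lower. With no filter on low values they were 347 and 177 among all genes, 1 and 0 among the 10, 1 lower TEAD target, 2 lower Hippo regulators, 2 and 1 YAP-responsive genes and 0 lower actin genes. A minimum mean FPKM of 1 gave 1088 and 946 among all genes and 8 lower actin genes. Unscaled FPKM gave 662 and 1124 among all genes, whose median moved to −0.076. It gave 2 lower of the 10, 5 higher YAP-responsive genes and 9 lower actin genes. Quantile normalization gave 873 and 895 among all genes, 1 and 3 of the 10 and 11 lower actin genes. With equal FPKM sums they were 383 and 2387 among all genes, 1 and 4 of the 10, 14 lower Hippo regulators, 4 and 11 YAP-responsive genes and 11 lower actin genes. Without the intensity trend they were 436 and 416, 1 and 0 of the 10, 2 lower TEAD targets, 2 lower Hippo regulators, 3 higher YAP-responsive genes and 1 lower actin gene. The length correction gave 909 and 626 among all genes, and 1 and 2 Hippo regulators. The GC correction gave 1782 and 1519 among all genes, 4 higher TEAD targets, 1 and 10 Hippo regulators, 10 lower YAP-responsive genes and 9 lower actin genes. Voom on the recovered reads gave 1294 and 1507, with 11 lower Hippo regulators, 9 lower YAP-responsive genes and 8 lower actin genes. The share of higher among called genes was 55.7%, against 37.1% unscaled, 13.8% with equal FPKM sums (where the median of all genes was −0.194) and 66.2% with no filter.

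Same-numbered replicates did not deviate together (r = 0.0634, 0.0999 and −0.0535), so the numbers were not taken to pair the samples. With a replicate block 848 genes were called higher and 762 lower, 2 and 1 of the 10, and 5 higher YAP-responsive genes. Replicate block and length correction together gave 592 and 398, 1 higher of the 10, 2 lower TEAD targets, 1 lower Hippo regulator, and 5 and 2 YAP-responsive genes.

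Leaving out 1 library gave 55 to 1813 higher and 14 to 1682 lower of all genes, 1 to 2 and 0 to 1 of the 10, 2 to 4 and 0 to 7 TEAD targets, 0 to 1 and 0 to 12 Hippo regulators, 1 to 9 and 1 to 12 YAP-responsive genes and 0 to 9 lower actin genes. The cause of these shifts was not tested. TEAD1 also lost its call with no filter (adjusted p = 0.0868) and without the trend (0.0644). Each of the 10 genes had 142 reads or more in every library.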

Other observations

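Other genes followed YAP1 and CCN1 closely over the 6 libraries. Among 6646 genes with a mean of at least 5 FPKM, those with the highest Pearson's r to CCN1 included RHEBP2 (0.9987), CSRNP1 (0.998), C1orf56 (0.9976) and HSBP1L1 (0.9921). Of these CSRNP1 (log2 fold change 0.40, adjusted p = 0.0241) and HSBP1L1 (0.44, adjusted p = 0.0175) were called higher by limma. RHEBP2 (0.21, adjusted p = 0.083) and C1orf56 (0.30, adjusted p = 0.0511) were not called. The 5 closest to YAP1 were VKORC1L1 (0.9955), RASSF3 (0.9918), SIRT1 (0.9906), TWF1 (0.9892) and SENP2 (0.9874), none of which was called, with log2 fold changes between −0.24 and −0.19. With 6 libraries in 2 groups that share their scaling, such coefficients describe the profiles and carry no test.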
